A study of Mus musculus with 79 samples.

Results

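The genes described here are 10 hypoxia-inducible genes that do not encode enzymes of glycolysis: Hif1a, Egln1, Egln3, Bnip3, Bnip3l, Ndrg1, Ankrd37, P4ha1, Kdm3a and Vegfa. They were chosen by name, with earlier results of these data known, as 10 of the 20465 genes of a TPM table from mouse Th17 cells. The table writes them in upper case, as HIF1A, EGLN1, EGLN3, BNIP3, BNIP3L, NDRG1, ANKRD37, P4HA1, KDM3A and VEGFA. TPM is a transcript's abundance corrected for its length and scaled to the total of its library. A filter of at least 1 TPM in at least 4 libraries kept 10672 genes, among them 9 of the 10, and left out Vegfa. Cells that lack oxygen stabilise HIF-1α, the product of Hif1a, because the prolyl hydroxylases encoded by Egln1 and Egln3 need oxygen to mark it for destruction by the VHL ubiquitin ligase. Stabilised HIF-1α pairs with ARNT and binds hypoxia response elements beside genes of glucose metabolism, mitophagy, collagen processing and blood vessel growth, the Egln genes included. In activated T cells HIF-1α also accumulates at normal oxygen, downstream of T cell receptor, mTOR and STAT3 signals, and it is known for promoting the Th17 programme.

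T cells were driven in culture towards 2 kinds of Th17 cell, pathogenic Th17p cells with IL-1β, IL-6 and IL-23, and non-pathogenic Th17n cells with TGF-β and IL-6. Each kind was treated with 20 µM EGCG, a green tea catechin, against its solvent DMSO, or with 50 µM DHEA, a steroid known as an inhibitor of glucose-6-phosphate dehydrogenase, against its solvent methanol. RNA was taken from unsorted cells (Total) and from cells sorted by the dilution of a dye, CFSE, as having divided exactly 1 time (Div.1), which gives 16 groups of cell type, treatment and sort. The labels give 5 mice per condition, and name no genetic change, strain, sex or age. The library of well A4, labelled otherwise than the rest of its plate row, did not enter any comparison, so 78 libraries were compared, 5 in each of 14 groups and 4 in the Div.1 groups of DMSO-treated Th17p and Th17n cells. Total and Div.1 libraries may come from the same cultures, and nothing ties a library to a mouse, so the p-values measure the spread between these libraries. All libraries of DMSO and EGCG stood in other plate columns than those of methanol and DHEA, so that solvent and plate column cannot be told apart. Well A4 apart, each plate row held a single cell type and sort, and either solvents or compounds. Differences between cell types, between sorts and between compound and solvent therefore cannot be told apart from plate row. Libraries were alike in makeup, with 9338 to 9845 genes at 1 TPM or more, but sequencing depth is unknown because TPM keeps none.

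The labelled cell type was checked by its markers. Over the 4 T cell markers found (Cd3e, Cd3d, Cd3g and Cd4) the summed level was 553 to 1232 TPM over the libraries. The summed level of 6 Th17 markers, with Il17a and Il17f among them, differed between treatments. Il17f weighed most in it, with a median of 1834 TPM over the libraries against 57.5 for Il17a and 6.79 for Ccr6. The ranges of the sum thus describe mainly Il17f. In Th17p Total cells the sum was 1932 to 2784 TPM with DMSO, 123 to 392.2 with EGCG, 1312 to 1937 with methanol and 101.3 to 290.3 with DHEA. Th17n Total cells had 6419 to 7793 TPM with DMSO, 6019 to 7483 with EGCG, 4462 to 5833 with methanol and 725 to 1413 with DHEA. In Th17p Div.1 cells the ranges were 2081 to 2475 TPM with DMSO, 379 to 480.01 with EGCG, 842 to 1579.6 with methanol and 147 to 269 with DHEA. In Th17n Div.1 cells they were 3522 to 4444 TPM with DMSO, 7368 to 8503 with EGCG, 3275 to 4248 with methanol and 1059.98 to 2242 with DHEA. In Th17n Div.1 cells the EGCG libraries thus lay above the DMSO libraries, the reverse of their order in Th17p cells. Markers of other cells were low: 7 markers of CD8 T and NK cells summed to at most 45.8 TPM, 4 of B cells to at most 5.11 and 4 of myeloid cells to at most 1.67. Cd8a never passed 0.557 TPM, and the NK and cytotoxic markers Ncr1, Klrb1c and Gzma were at 0 in 74, 71 and 75 of the 78 libraries. In the same list Cd8b1 ran from 3.41 to 26.9 TPM, and Nkg7 and Klrd1 reached 22.9 and 24.2 TPM. Among B cell markers Ms4a1 and Pax5 were at 0 in 72 and 67 libraries, while Cd79b reached 4.12 TPM and was at 0 in 2. The myeloid marker Lyz2 was at 0 in 73 libraries. The T cell sum also differed between treatments, in Th17p Total cells at 743 to 761 TPM with DMSO, 1085 to 1185 with EGCG, 779 to 821 with methanol and 1179.7 to 1232 with DHEA. In Th17n Total cells it was 553 to 575 TPM with DMSO, 713 to 821 with EGCG, 554 to 594 with methanol and 859.6 to 977 with DHEA. The CD8 and NK sum in Th17p Total cells was 9.57 to 14.8 TPM with DMSO, 19.3 to 31.7 with EGCG, 14.8 to 23.1 with methanol and 22.2 to 30.95 with DHEA. In Th17n Total cells it was 11.2 to 20.4 TPM with DMSO, 14.04 to 22.8 with EGCG, 17.8 to 25.9 with methanol and 31.3 to 45.8 with DHEA. The B cell sum in Th17n Total cells was 0.765 to 1.54 TPM with methanol and 1.88 to 5.11 with DHEA. The part of these markers in the changes below was not tested.

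Promoter sequences of 3 of the genes are given: Bnip3 and Ankrd37, both higher in Th17p than in Th17n cells and raised by DHEA in all 4 combinations of cell type and sort, and Egln3, which was lower in Th17p cells and fell most with EGCG there. Each is the 250 bases before the gene's start in RefSeq (GRCm38.p6), read 5′ to 3′ along the gene's own strand, with both cores of the hypoxia response element, ACGTG and GCGTG, in capitals on either strand. The windows lie at chr7:138909507-138909756 for Bnip3, chr8:45999851-46000100 for Ankrd37 and chr12:54203875-54204124 for Egln3, all 3 on the minus strand. The Ankrd37 window lies inside the gene's span as given further below, chr8:45996902-46005707, which reaches further upstream than the RefSeq start. Its distances hold for the RefSeq start only.
Bnip3: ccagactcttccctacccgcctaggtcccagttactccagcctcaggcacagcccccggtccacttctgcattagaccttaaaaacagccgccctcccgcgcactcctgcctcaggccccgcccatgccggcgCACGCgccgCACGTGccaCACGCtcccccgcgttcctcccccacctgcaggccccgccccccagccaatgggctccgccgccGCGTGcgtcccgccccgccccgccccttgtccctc
Ankrd37: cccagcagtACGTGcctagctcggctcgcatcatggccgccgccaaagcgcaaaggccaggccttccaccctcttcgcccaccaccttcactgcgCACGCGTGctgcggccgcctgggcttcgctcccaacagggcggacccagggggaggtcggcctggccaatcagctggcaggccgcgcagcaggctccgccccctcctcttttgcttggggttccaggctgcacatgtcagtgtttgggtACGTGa
Egln3: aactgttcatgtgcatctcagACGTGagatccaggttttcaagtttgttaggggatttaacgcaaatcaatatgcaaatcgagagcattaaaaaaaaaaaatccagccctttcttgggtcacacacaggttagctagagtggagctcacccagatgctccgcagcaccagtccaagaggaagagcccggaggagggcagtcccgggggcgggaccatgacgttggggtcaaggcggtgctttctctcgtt
The Bnip3 window held ACGTG 2 times and GCGTG 3 times. The 2 ACGTG matches, on opposite strands, overlap in the palindrome that starts 108 bases before the start. The Ankrd37 window held each core 2 times, with 2 GCGTG matches on opposite strands overlapping 155 to 148 bases before the start and an ACGTG 6 to 2 bases before it. The Egln3 window held 1 ACGTG, 229 to 225 bases before the start. Of all 32851 RefSeq promoter windows of this length, from 27025 genes, 16.6% held ACGTG, 28.2% held GCGTG and 38.6% held either. The promoter table matched 8 of the 10 genes, Bnip3l and Ndrg1 being the others, and 7 of those 8 had an ACGTG in a window, all but Kdm3a. That count is by gene, and a gene with several windows has more chances, so it cannot be set against the shares of windows. By window, 8 of the 11 windows of these genes held either core. For Vegfa the ACGTG lay in a window inside the gene (chr17:46025164-46025413), and the window at the gene's start held neither core. A match is a run of letters and not a shown binding site, and these cores are short.

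The 10 genes lay on very different levels. Hif1a and P4ha1 stood high in every group, with group means of 66.4 to 122 and 50.4 to 102 TPM, while those of Egln3 ran from 12.5 to 94.2 TPM. Vegfa, the angiogenic growth factor, was near the limit of the table, with no library at 1 TPM, 10 libraries at 0 and a highest value of 0.448 TPM. Bnip3, Ndrg1, Ankrd37 and Egln3 varied most across the 16 groups. The highest group mean was 12.05 times the lowest for Ndrg1, 11.5 times for Bnip3, 7.54 times for Egln3 and 7.28 times for Ankrd37. The same ratio was 2.25 for Bnip3l, 2.03 for P4ha1, 2.01 for Kdm3a, 1.84 for Hif1a and 1.70 for Egln1. Bnip3, Ndrg1 and Ankrd37 were lowest in Th17n cells under a solvent and highest in Th17p cells under a compound. Egln3 was the other way round, lowest in Th17p Total cells with EGCG at 12.5 ± 1.98 (SD, n = 5) TPM and highest in Th17n Div.1 cells with DHEA at 94.2 ± 9.71 (SD, n = 5) TPM. With the 16 groups in order of mean, the libraries of neighbouring groups overlapped at 12 of 15 steps for Ndrg1, at 13 for Bnip3, at 14 for Ankrd37, Egln3 and Egln1, and at all 15 for Hif1a, Bnip3l, P4ha1 and Kdm3a.

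**Figure D1:**
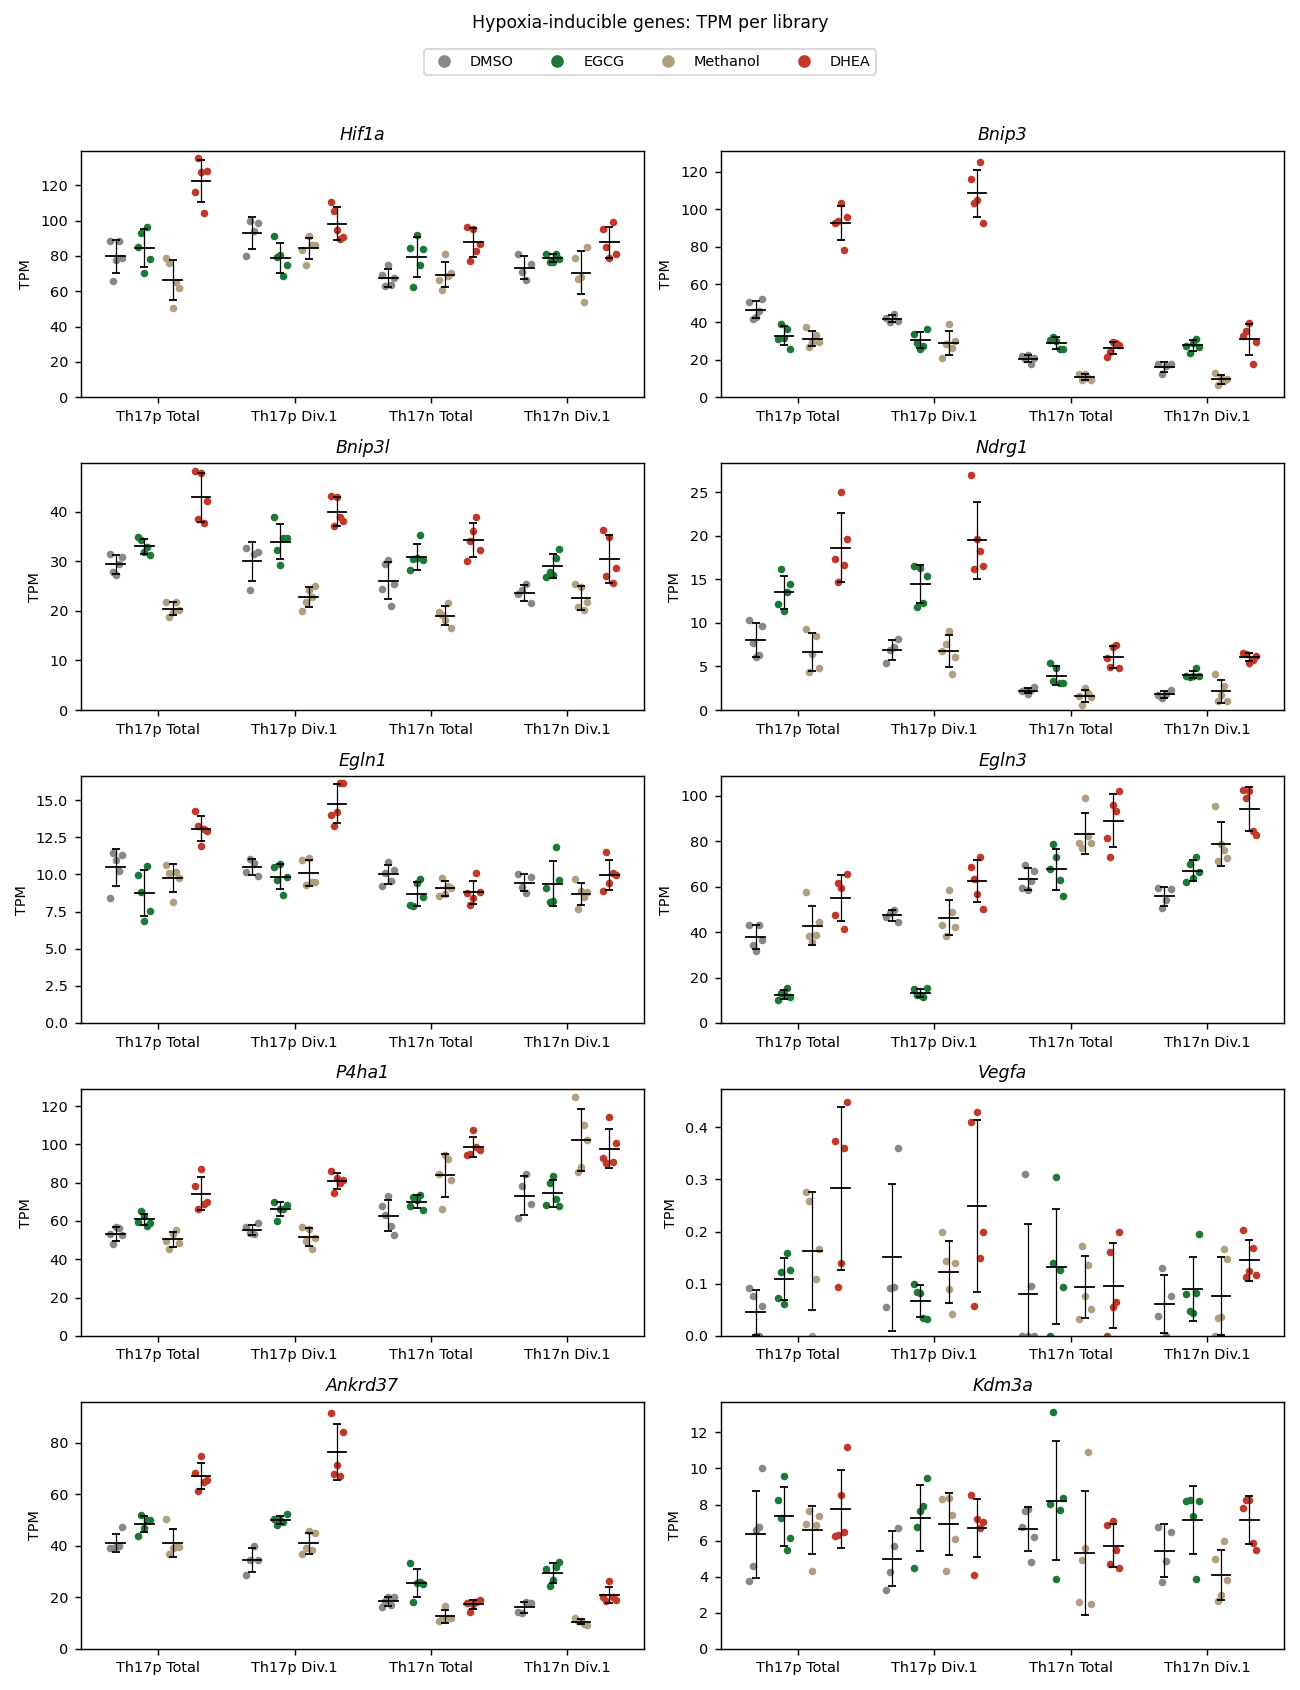
TPM of the 10 genes in each of the 78 libraries (points, linear axis from 0), by cell type and sort on the x axis and by treatment in colour, with the group mean and SD as a bar. Bnip3 stands highest in Th17p cells with DHEA, Egln3 lowest in Th17p cells with EGCG, and Vegfa stays under 0.5 TPM.

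The cell types were first compared without compound, as the mean of the DMSO and methanol groups of each. Bnip3, Ndrg1 and Ankrd37 were higher in Th17p than in Th17n cells, and Egln3 and P4ha1 were lower. Bnip3, a receptor on the outer mitochondrial membrane that marks mitochondria for autophagy, stood in Th17p Total cells at 45.8, 41.5, 42.8, 52.2 and 50.5 TPM with DMSO and at 29.4, 26.8, 29.1, 33.3 and 37.4 TPM with methanol. The Th17n Total cells had Bnip3 at 22.6, 21.7, 20.8, 17.4 and 20.1 TPM with DMSO and at 10.4, 8.94, 12.3, 9.28 and 12.4 TPM with methanol. Within each solvent the Th17p libraries all lay above the Th17n libraries, and the difference was 1.30 (SE 0.10, adjusted p = 3.00e-19) on the log2(TPM + 1) scale in Total cells and 1.43 (SE 0.10, adjusted p = 7.81e-20) in Div.1 cells. Here and throughout, adjusted p-values are from limma with Benjamini-Hochberg adjustment over the 10672 genes, a gene is called at an adjusted p under 0.05, and log2 changes are on the log2(TPM + 1) scale, which understates the change of genes at a few TPM. Ndrg1, a stress-induced gene also described in T cells as a factor of anergy, had means of 8.03 ± 1.95 (SD, n = 5) TPM in Th17p and 2.22 ± 0.256 (SD, n = 5) TPM in Th17n Total cells with DMSO. Its difference between cell types was 1.51 (SE 0.13, adjusted p = 3.64e-16) in Total and 1.43 (SE 0.14, adjusted p = 3.84e-14) in Div.1 cells. Ankrd37, a small ankyrin-repeat protein known as a HIF-1 target, had means of 41.1 ± 3.58 (SD, n = 5) and 18.4 ± 1.87 (SD, n = 5) TPM in the same 2 groups, with differences of 1.38 (SE 0.08, adjusted p = 4.63e-26) and 1.46 (SE 0.08, adjusted p = 5.78e-26).

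Egln3, the prolyl hydroxylase known for its strong induction by HIF, had its higher level in Th17n cells. With DMSO it stood at 42.98, 34.5, 31.7, 36.7 and 43.2 TPM in Th17p Total cells and at 58.6, 59.6, 66.8, 62.7 and 69.7 TPM in Th17n Total cells. Its difference was -0.85 (SE 0.08, adjusted p = 1.09e-14) in Total and -0.50 (SE 0.09, adjusted p = 8.40e-07) in Div.1 cells. P4ha1, the catalytic subunit of the collagen prolyl 4-hydroxylase, was lower in Th17p cells by 0.47 log2 (SE 0.06, adjusted p = 3.62e-10) in Total and by 0.67 log2 (SE 0.06, adjusted p = 7.03e-15) in Div.1 cells. Hif1a itself, the sensor hydroxylase Egln1 and the mitophagy receptor Bnip3l were called in Div.1 cells, where they were higher in Th17p by 0.30 log2 (SE 0.08, adjusted p = 0.000369), 0.17 log2 (SE 0.06, adjusted p = 0.0195) and 0.17 log2 (SE 0.07, adjusted p = 0.0238). In Total cells the same 3 genes had differences of 0.08 (adjusted p = 0.36), 0.07 (adjusted p = 0.297) and 0.14 (adjusted p = 0.0552). Rescaling by median ratios took the Egln1 difference in Div.1 cells to 0.12 (adjusted p = 0.0917) and the Bnip3l difference to 0.12 (adjusted p = 0.0932), so that 4 genes in place of 6 were then called higher. The Bnip3l call in Div.1 cells was also lost with well A4 in its labelled group (adjusted p = 0.0812) and without any of 4 single libraries, at adjusted p of 0.0513 to 0.0616. Kdm3a, a demethylase of histone H3 lysine 9, was called in neither sort, at 0.15 (SE 0.17, adjusted p = 0.465) and 0.27 (SE 0.18, adjusted p = 0.204). In all, 3 of the 9 genes were called higher and 2 lower in Total cells, where 30.9% of all genes tested were called higher and 26.5% lower. In Div.1 cells 6 were called higher and 2 lower, against 34.9% and 25.7% of all genes. These are bulk samples, in which fewer cells of a type and less RNA per cell cannot be told apart.

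**Figure D2:**
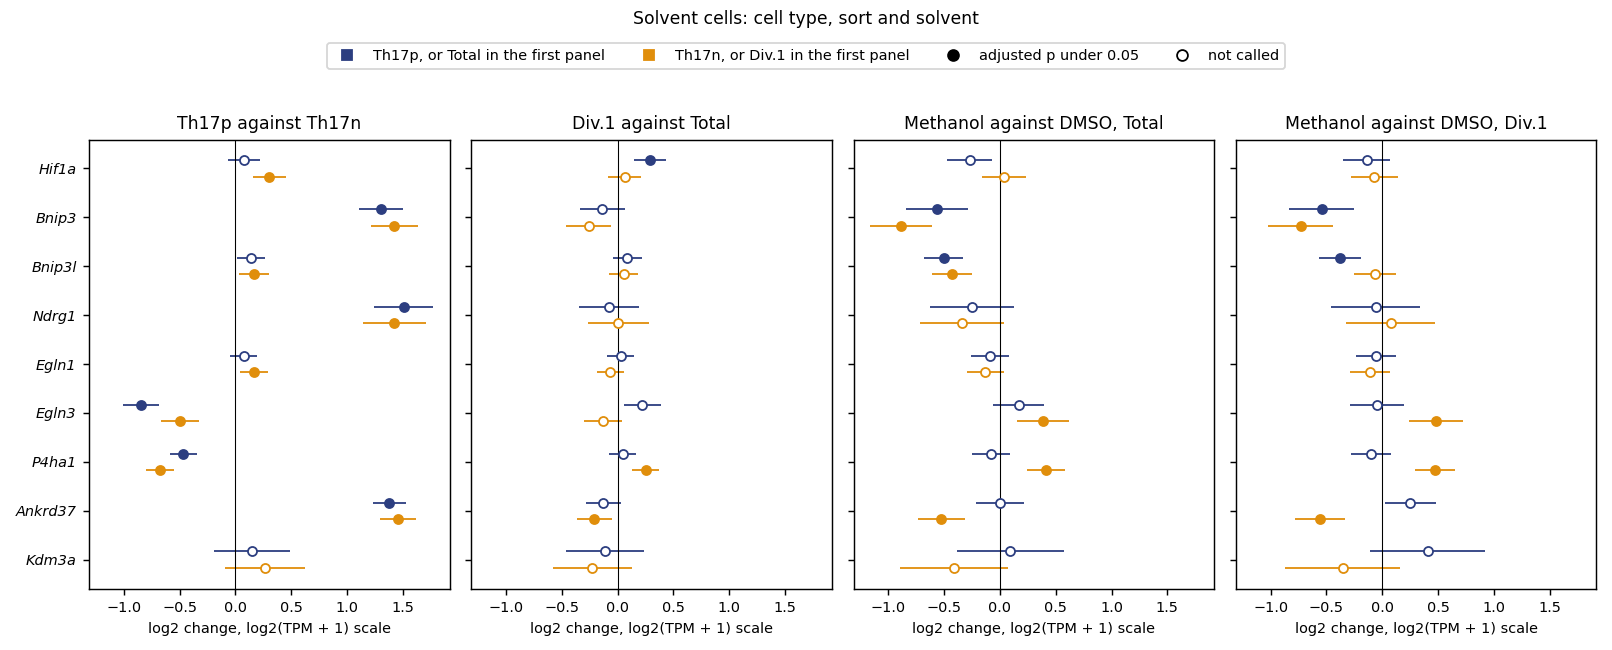
Log2 change of the 9 tested genes (points, with 95% confidence intervals; filled for adjusted p under 0.05) between cell types, between sorts and between solvents, in cells without compound. Bnip3, Ndrg1 and Ankrd37 lie right of 0 for Th17p against Th17n while Egln3 and P4ha1 lie left of it, and Bnip3 lies left of 0 in all 4 comparisons of methanol with DMSO.

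Between cells that had divided exactly 1 time and unsorted cells, a minority of these genes was called, as of all genes. In Th17p cells under solvents Hif1a was higher in Div.1 than in Total cells by 0.29 log2 (SE 0.07, adjusted p = 0.00281), and it was the only gene of the 9 called, against 19.4% of all genes. Egln3 missed a call there (adjusted p = 0.0541). It was called higher in Div.1 after rescaling (0.23, adjusted p = 0.0263) and without any of 4 single libraries, at adjusted p of 0.0115 to 0.0368. In Th17n cells 2 of the 9 were called, against 21.9% of all genes. P4ha1 was higher in Div.1 by 0.25 log2 (SE 0.06, adjusted p = 0.00156) and Ankrd37 lower by 0.21 log2 (SE 0.08, adjusted p = 0.0443). Bnip3 missed a call (adjusted p = 0.0556), and was called lower in Div.1 without any of 6 single libraries, at adjusted p of 0.0161 to 0.0481. Leaving out any of 9 single libraries lost the Ankrd37 call, at adjusted p of 0.0507 to 0.144. That call was also lost with well A4 in its labelled group (adjusted p = 0.572) and under rescaling (adjusted p = 0.0968). It was lost too with the groups compared fitted alone (adjusted p = 0.0722) and with no filter on low values (adjusted p = 0.0846).

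Of the 9 genes, Bnip3 was the gene that differed between the solvents in all 4 combinations of cell type and sort. Bnip3 was lower with methanol than with DMSO in Th17p Total cells, by 0.57 log2 (SE 0.14, adjusted p = 0.00461), and the 2 groups, given above, did not overlap. The difference was -0.54 (SE 0.15, adjusted p = 0.0171) in Th17p Div.1, -0.89 (SE 0.14, adjusted p = 5.42e-06) in Th17n Total and -0.73 (SE 0.15, adjusted p = 0.000555) in Th17n Div.1 cells. The call in Th17p Div.1 cells was lost without either of 2 libraries, at adjusted p of 0.0616 and 0.0927, and with well A4 in its labelled group (adjusted p = 0.0897). With only the groups compared in the fit, Bnip3 lost its call in Th17p Div.1 (adjusted p = 0.0822) and in Th17n Div.1 cells (adjusted p = 0.0820). Bnip3l was lower with methanol by 0.51 log2 (SE 0.09, adjusted p = 4.60e-05) in Th17p Total, by 0.38 log2 (SE 0.09, adjusted p = 0.007) in Th17p Div.1 and by 0.43 log2 (SE 0.09, adjusted p = 0.000525) in Th17n Total cells, and its change in Th17n Div.1 cells was -0.07 (SE 0.09, adjusted p = 0.772). Its Th17p Div.1 call was lost with the groups fitted alone (adjusted p = 0.0811). In Th17n cells Ankrd37 was lower with methanol as well, by 0.53 log2 (SE 0.11, adjusted p = 0.000473) in Total and 0.56 log2 (SE 0.11, adjusted p = 0.000591) in Div.1 cells. Egln3 and P4ha1 were higher with methanol in Th17n cells, Egln3 by 0.39 log2 (SE 0.11, adjusted p = 0.0264) in Total and 0.48 log2 (SE 0.12, adjusted p = 0.00755) in Div.1 cells. P4ha1 was higher by 0.41 log2 (SE 0.08, adjusted p = 0.000622) and 0.47 log2 (SE 0.09, adjusted p = 0.000252), and both of these calls were lost with the groups fitted alone (adjusted p = 0.0672 and 0.105). The Egln3 call in Total cells was lost without any of 3 libraries, at adjusted p of 0.0695 to 0.118, and with no filter on low values (adjusted p = 0.0515). Of the 9 genes, 2 were called in Th17p Total and 2 in Th17p Div.1 cells, all lower, and 5 (3 lower and 2 higher) and 4 (2 lower and 2 higher) in Th17n Total and Div.1 cells. Of all genes tested, 6.83%, 4.74%, 6.66% and 6.1% were called in the same 4 comparisons, in either direction. The methanol libraries are also the controls of DHEA, so the 2 sets of changes share libraries, and solvent cannot be told apart from plate column.

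DHEA raised most of these genes, and EGCG raised some in both cell types and lowered others in Th17p cells. With DHEA against methanol, 8 of the 9 genes were called higher in Th17p Total cells, 7 in Th17p Div.1, 6 in Th17n Total and 6 in Th17n Div.1 cells, and 0 were called lower in any of the 4. Of all genes tested, 20.9%, 18.1%, 20.8% and 22.1% were called higher in the same order, and 26.8%, 19.2%, 25.3% and 14.6% lower. Bnip3, Bnip3l, Ndrg1 and Ankrd37 were called higher in all 4. The median log2 change of the 9 genes was 0.70, 0.64, 0.33 and 0.41, beside medians of all genes of -0.02, 0.0045, -0.0077 and 0.05. The DHEA libraries lay wholly above the methanol libraries for 7, 6, 4 and 4 of the 9 genes in the same order, and wholly below for 0. Over all genes, 14.6%, 11.2%, 14% and 11.1% lay wholly above and 19.2%, 12.4%, 18.7% and 8.32% wholly below.

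With EGCG against DMSO, 1 of the 9 was called higher and 3 lower in Th17p Total cells, where EGCG moved 30.1% of all genes tested up and 14.9% down. In Th17p Div.1 cells 3 were higher and 2 lower, against 33.7% and 11.9% of all genes. In Th17n cells 4 were higher in Total and 4 in Div.1, with 0 lower, against 21.7% of all genes higher and 13.5% lower in Total, and 28.1% and 6.77% in Div.1. Ndrg1 was called higher with EGCG in all 4 comparisons. In the order used for DHEA, the EGCG libraries lay wholly above the DMSO libraries for 2, 3, 2 and 5 of the 9 genes and wholly below for 2, 2, 0 and 0. Over all genes, 21.7%, 28.3%, 12% and 22.8% lay wholly above and 10.8%, 10.4%, 6.13% and 4.54% wholly below. Many calls over all genes under EGCG leaned upward, and that lean depended on the scaling: with libraries rescaled by their median ratio, the genes called higher and lower went from 3208 and 1586 to 2506 and 2256 in Th17p Total cells and from 3601 and 1270 to 2430 and 2241 in Th17p Div.1 cells. In Th17n cells they went from 2319 and 1441 to 1908 and 1912 in Total and from 2999 and 723 to 1642 and 1671 in Div.1. That rescaling shifted the median gene by -0.103 log2 in Th17p Div.1 and by -0.112 in Th17n Div.1 cells. Among Th17p Div.1 libraries it brought the change of Hif1a to -0.36 (adjusted p = 0.00382), a call, and that of P4ha1 to 0.13 (adjusted p = 0.206), no longer a call. In Th17n Div.1 cells it brought the change of Bnip3l to 0.16 (adjusted p = 0.174), also no longer a call. In Th17n Total cells it made Egln1 a call, at -0.22 (adjusted p = 0.0271), so that 1 gene was then called lower there.

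**Figure D3:**
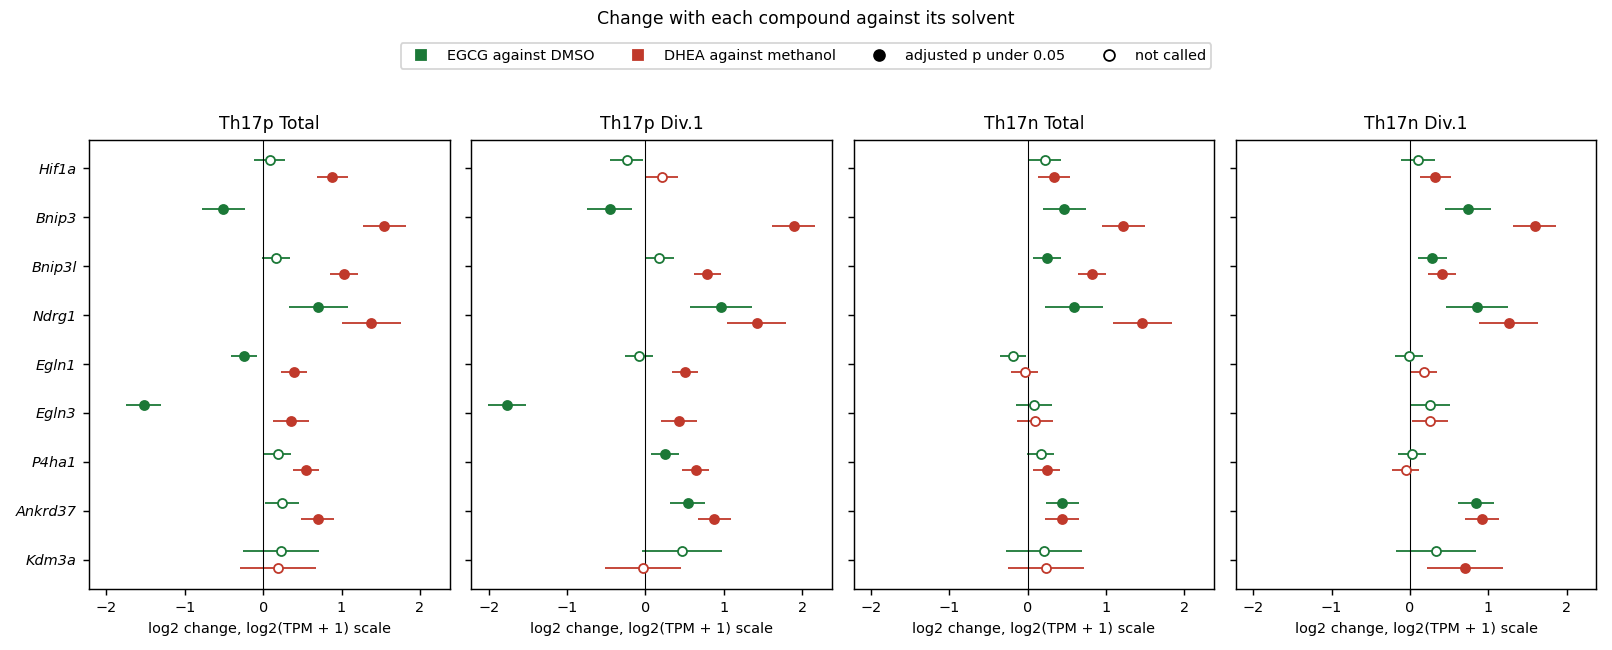
Log2 change of the 9 tested genes with EGCG against DMSO (green) and DHEA against methanol (red) in the 4 combinations of cell type and sort, with 95% confidence intervals and filled points for adjusted p under 0.05. DHEA points lie right of 0 for Bnip3, Bnip3l, Ndrg1 and Ankrd37 in all 4 panels, and EGCG points of Egln3 lie at -1.53 and -1.77 in Th17p cells and at 0.08 and 0.26 in Th17n cells.

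Hif1a (chr12:73901375-73947530, plus strand; coordinates here and below are of mm10), the regulated subunit of HIF-1, rose with DHEA most of all in unsorted Th17p cells. There it stood at 62.02, 75.9, 50.3, 65.0003 and 78.7 TPM with methanol and at 104, 135, 116, 128 and 127 TPM with DHEA. Every DHEA library lay above every methanol library, and the rise was 0.88 log2 (SE 0.10, adjusted p = 2.13e-11). In Th17p Div.1 cells Hif1a stood at 84.4 ± 6.05 TPM with methanol and 98.1 ± 9.36 with DHEA (SD, n = 5 each), a change of 0.21 (SE 0.10, adjusted p = 0.0896) that was called with the groups compared fitted alone (adjusted p = 0.0373). The response was smaller there than in Total cells by 0.67 log2 (SE 0.14, adjusted p = 0.000949), the only such difference between sorts among the 9 genes in Th17p cells, against 9.91% of all genes. In Th17n cells Hif1a rose with DHEA by 0.33 log2 (SE 0.10, adjusted p = 0.00458) in Total and by 0.32 log2 (SE 0.10, adjusted p = 0.00814) in Div.1 cells. The Div.1 rise was lost without methanol replicate 9, at 0.23 (adjusted p = 0.0719), and with the groups compared fitted alone (adjusted p = 0.0507). In Total cells the response was larger in Th17p than in Th17n cells by 0.55 log2 (SE 0.14, adjusted p = 0.0036). Hif1a and Egln1 were the 2 of the 9 genes called in that test between cell types, against 14.8% of all genes. With EGCG Hif1a was called in none of the 4 comparisons at the deposited scale. Its largest EGCG change was -0.24 (SE 0.11, adjusted p = 0.0615) in Th17p Div.1 cells, from 93.2 ± 9.06 TPM (SD, n = 4) to 78.9 ± 8.52 (SD, n = 5), a call after rescaling, as given above, and with the groups compared fitted alone (adjusted p = 0.0496). The mRNA level says nothing of the HIF-1α protein, which is known to be controlled mainly by its breakdown.

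With EGCG in Th17p cells, Egln3 changed by far more than Egln1, the other oxygen-sensing hydroxylase. Egln3 (chr12:54178981-54203860, minus strand) fell with EGCG in Th17p cells. In Th17p Total cells it stood at 42.98, 34.5, 31.7, 36.7 and 43.2 TPM with DMSO and at 12.6, 10.04, 11.3, 15.3 and 13.2 with EGCG. In Th17p Div.1 cells it stood at 46.5, 48.6, 49.7 and 44.7 TPM with DMSO and at 11.6, 12.2, 12.3, 15.4 and 14.8 with EGCG. The groups were far apart in both sorts, with a mean 0.330 times that of DMSO in Total and 0.280 times in Div.1 cells. The falls were of 1.53 log2 (SE 0.11, adjusted p = 2.22e-18) and 1.77 log2 (SE 0.12, adjusted p = 6.19e-20). In Th17n cells the EGCG libraries stood at 78.9, 55.8, 67.7, 72.9 and 62.9 TPM against 58.6, 59.6, 66.8, 62.7 and 69.7 with DMSO in Total cells, and those 2 groups overlapped. The changes there were 0.08 (SE 0.11, adjusted p = 0.613) in Total and 0.26 (SE 0.12, adjusted p = 0.0884) in Div.1 cells, the second a call with the groups compared fitted alone (adjusted p = 0.0119) or with well A4 in its labelled group (adjusted p = 0.0210). The difference in the EGCG response between Th17p and Th17n was -1.61 (SE 0.16, adjusted p = 1.35e-11) in Total and -2.03 (SE 0.17, adjusted p = 1.93e-14) in Div.1 cells. DHEA moved Egln3 less, with rises of 0.36 log2 (SE 0.11, adjusted p = 0.00772) in Th17p Total and 0.43 log2 (SE 0.11, adjusted p = 0.00211) in Th17p Div.1 cells, the first not called with the groups compared fitted alone (adjusted p = 0.0682), and changes of 0.09 (SE 0.11, adjusted p = 0.555) and 0.26 (SE 0.11, adjusted p = 0.0726) in Th17n cells. Egln1 (chr8:124908587-124949324, minus strand), the main oxygen sensor of most cells, stayed between 8.69 and 14.8 TPM in all group means. Egln1 rose with DHEA in Th17p cells, from 9.75 ± 0.953 to 13.1 ± 0.845 TPM in Total cells (SD, n = 5 each), by 0.39 log2 (SE 0.08, adjusted p = 6.78e-05), and by 0.51 log2 (SE 0.08, adjusted p = 1.19e-06) in Div.1 cells. In Th17n cells its DHEA changes were -0.04 (SE 0.08, adjusted p = 0.732) and 0.18 (SE 0.08, adjusted p = 0.0925), and the responses of the 2 cell types differed by 0.43 log2 (SE 0.12, adjusted p = 0.00672) in Total and 0.33 log2 (SE 0.12, adjusted p = 0.0455) in Div.1 cells. The Div.1 difference was lost without any of 12 single libraries, at adjusted p of 0.0514 to 0.0925. It was also lost with well A4 in its labelled group (adjusted p = 0.0519) and with the groups compared fitted alone (adjusted p = 0.0700). The same held with no filter on low values (adjusted p = 0.0711) and with 0.1 in place of 1 added to TPM (adjusted p = 0.0548). With EGCG Egln1 fell in Th17p Total cells by 0.24 log2 (SE 0.08, adjusted p = 0.0144), a call lost without EGCG replicate 1 (-0.17, adjusted p = 0.1002) or replicate 3 (-0.20, adjusted p = 0.0643) and with the groups compared fitted alone (adjusted p = 0.121). Its other EGCG changes were -0.08 (SE 0.09, adjusted p = 0.465) in Th17p Div.1, -0.19 (SE 0.08, adjusted p = 0.0756) in Th17n Total and -0.02 (SE 0.09, adjusted p = 0.913) in Th17n Div.1 cells. The Th17n Total change was called after rescaling, as given above, and without EGCG replicate 5 (-0.22, adjusted p = 0.0449).

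Bnip3 (chr7:138890836-138909519, minus strand) gave the largest DHEA response of the 9 genes in Th17p cells, and its EGCG response took opposite directions in the 2 cell types. With DHEA in Th17p Total cells it stood at 78.3, 93.9, 92.9, 95.7 and 104 TPM, above every methanol and every DMSO library given earlier. Among Th17p Div.1 cells it stood at 29.9, 26.4, 20.9, 28.5 and 38.9 TPM with methanol and at 92.98, 104, 105, 125 and 116 with DHEA. The means were 2.98 and 3.76 times those of methanol, with rises of 1.55 log2 (SE 0.14, adjusted p = 3.49e-15) and 1.89 log2 (SE 0.14, adjusted p = 4.33e-18). With DHEA in Th17n Total cells Bnip3 stood at 21.5, 27.5, 28.6, 23.96 and 29.2 TPM, and in Th17n Div.1 cells at 9.59, 6.38, 10.1, 8.37 and 12.8 with methanol and 17.5, 35.2, 32.3, 29.5 and 39.6 with DHEA. No DHEA library overlapped its methanol group, and the rises were 1.22 log2 (SE 0.14, adjusted p = 2.22e-11) and 1.59 log2 (SE 0.14, adjusted p = 5.39e-15). In Th17n Total cells the DHEA libraries did overlap those of DMSO, which ranged from 17.4 to 22.6 TPM. With EGCG in Th17p Total cells Bnip3 stood at 31.6, 30.9, 25.7, 36.1 and 38.9 TPM, below all 5 DMSO libraries. It fell there by 0.51 log2 (SE 0.14, adjusted p = 0.00169) and in Div.1 cells by 0.46 log2 (SE 0.15, adjusted p = 0.00774). With EGCG in Th17n Total cells it stood at 32.3, 25.7, 30.5, 29.9 and 25.6 TPM, above all 5 DMSO libraries, and it rose by 0.47 log2 (SE 0.14, adjusted p = 0.00569). In Th17n Div.1 cells it stood at 16.6, 17.9, 17.9 and 12.3 TPM with DMSO and 28.998, 27.3, 26.9, 31.02 and 23.5 with EGCG, again without overlap, and rose by 0.74 log2 (SE 0.15, adjusted p = 3.81e-05). The EGCG response differed between Th17p and Th17n by -0.98 (SE 0.20, adjusted p = 0.000117) in Total and -1.20 (SE 0.21, adjusted p = 1.27e-05) in Div.1 cells. Bnip3 and Egln3 were the 2 of the 9 genes called in this test of the difference, in either sort, where 19.9% of all genes in Total and 17.5% in Div.1 cells were called in either direction. EGCG thus brought the Bnip3 levels of the cell types closer, with Total means of 46.6 ± 4.68 and 20.5 ± 2.003 TPM with DMSO against 32.6 ± 5.09 and 28.8 ± 3.002 with EGCG (SD, n = 5 each).

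Bnip3l (chr14:66985239-67008877, minus strand), or Nix, is the close relative of Bnip3 known for clearing mitochondria in maturing red cells. Its level was steadier than that of Bnip3. In Th17p Total cells it stood at 29.4, 27.8, 27.3, 30.9 and 31.6 TPM with DMSO, 20.2, 18.7, 19.7, 21.7 and 21.8 with methanol and 37.8, 38.6, 48.2, 42.2 and 47.8 with DHEA. DHEA libraries were the highest, the methanol libraries the lowest, and neither group overlapped the DMSO libraries between them. The rise with DHEA was 1.03 log2 (SE 0.09, adjusted p = 6.25e-16) in Th17p Total, 0.79 log2 (SE 0.09, adjusted p = 3.96e-11) in Th17p Div.1, 0.82 log2 (SE 0.09, adjusted p = 4.45e-12) in Th17n Total and 0.41 log2 (SE 0.09, adjusted p = 0.000141) in Th17n Div.1 cells. In Div.1 cells the rise was larger in Th17p than in Th17n by 0.38 log2 (SE 0.12, adjusted p = 0.0255), and in Th17n cells it was smaller in Div.1 than in Total by 0.41 log2 (SE 0.12, adjusted p = 0.0335). These differences were lost without any of 6 and of 9 single libraries, at adjusted p of 0.0508 to 0.0677 and of 0.0524 to 0.0885. Both were lost with the groups compared fitted alone (adjusted p = 0.0660 and 0.119). The second was also lost with well A4 in its labelled group (adjusted p = 0.0551) and with no filter on low values (adjusted p = 0.0595). With EGCG the change in Th17p cells was 0.16 (SE 0.09, adjusted p = 0.128) in Total and 0.18 (SE 0.09, adjusted p = 0.119) in Div.1 cells, the first a call with the groups compared fitted alone (adjusted p = 0.0287). In Th17n cells Bnip3l rose with EGCG by 0.24 log2 (SE 0.09, adjusted p = 0.0252) in Total and 0.28 log2 (SE 0.09, adjusted p = 0.0139) in Div.1 cells. The Total call was lost without DMSO replicate 2 (0.22, adjusted p = 0.0596), DMSO replicate 4 (0.17, adjusted p = 0.147) or EGCG replicate 5 (0.20, adjusted p = 0.0937), and with the groups compared fitted alone (adjusted p = 0.0957). The Div.1 call was lost without DMSO replicate 3 (0.24, adjusted p = 0.0622) or EGCG replicate 3 (0.24, adjusted p = 0.0509), with well A4 in its labelled group (adjusted p = 0.0702) and, as given above, under rescaling. A processed copy, the pseudogene Bnip3l-ps (chr12:18216542-18217673), is annotated, and reads shared with it cannot be told apart from those of the gene.

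Ndrg1 (chr15:66929318-66969640, minus strand) rose with both compounds in both cell types and both sorts. In Th17p Total cells it stood at 6.31, 7.69, 6.06, 9.69 and 10.4 TPM with DMSO, 11.4, 12.1, 14.5, 13.5 and 16.1 with EGCG, 4.82, 4.34, 6.48, 8.54 and 9.28 with methanol and 16.6, 14.6, 17.3, 19.7 and 24.99 with DHEA. Levels in Th17n Total cells were 1.89, 2.13, 2.59, 2.25 and 2.24 TPM with DMSO, 3.30, 3.09, 5.39, 4.78 and 3.09 with EGCG, 1.94, 0.596, 1.58, 1.49 and 2.49 with methanol and 5.93, 4.82, 7.49, 4.93 and 7.25 with DHEA. Each compound group lay wholly above its solvent group in these cells. The rise with EGCG was 0.70 log2 (SE 0.19, adjusted p = 0.00143) in Th17p Total and 0.59 log2 (SE 0.19, adjusted p = 0.0101) in Th17n Total cells, and that with DHEA was 1.38 log2 (SE 0.19, adjusted p = 4.77e-09) and 1.46 log2 (SE 0.19, adjusted p = 9.55e-10). In Div.1 cells Ndrg1 had means of 6.92 ± 1.15 TPM (SD, n = 4) with DMSO and 14.5 ± 2.21 (SD, n = 5) with EGCG in Th17p, and of 1.81 ± 0.397 (SD, n = 4) and 4.05 ± 0.430 (SD, n = 5) in Th17n. The rises with EGCG were 0.96 log2 (SE 0.20, adjusted p = 4.55e-05) and 0.85 log2 (SE 0.20, adjusted p = 0.000474). With well A4 kept in the group its label names, neither Th17n change was called, at 0.59 (adjusted p = 0.0612) in Total and 0.37 (adjusted p = 0.282) in Div.1 cells. Well A4 is in neither Total group, so that change kept its size and only the shared estimate of the spread and the adjustment moved. The library of well A4 held Ndrg1 at 13.96 TPM. The other libraries of its labelled group had 1.34 to 2.30 TPM, and those of Th17p DMSO Div.1 had 5.41 to 8.17. The rises with DHEA in Div.1 cells were 1.42 log2 (SE 0.19, adjusted p = 5.04e-09) in Th17p and 1.26 log2 (SE 0.19, adjusted p = 1.16e-07) in Th17n cells. The highest level of all was in Th17p Div.1 cells with DHEA, 19.5 ± 4.41 TPM, and the lowest in Th17n Total cells with methanol, 1.62 ± 0.694 TPM (SD, n = 5 each). No difference in the response of Ndrg1 between cell types or between sorts was called, the EGCG differences between Th17p and Th17n being 0.11 (95% interval -0.42 to 0.64) in Total and 0.11 (95% interval -0.45 to 0.67) in Div.1 cells.

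Ankrd37 (chr8:45996902-46005707, minus strand) followed Ndrg1 in most comparisons. In Th17n Div.1 cells it stood at 18.2, 14.4, 17.7 and 13.8 TPM with DMSO, 26.7, 30.96, 33.9, 31.7 and 24.3 with EGCG, 9.33, 10.8, 10.9, 9.80 and 11.8 with methanol and 20.2, 18.7, 20.2, 18.9 and 26.5 with DHEA. Each compound group lay above its solvent group without overlap, with rises of 0.84 log2 (SE 0.11, adjusted p = 9.81e-09) with EGCG and 0.92 log2 (SE 0.11, adjusted p = 1.21e-10) with DHEA. The rises in Th17n Total cells were 0.44 log2 (SE 0.11, adjusted p = 0.000761) with EGCG and 0.44 log2 (SE 0.11, adjusted p = 0.000465) with DHEA. They started from unlike solvent levels, with means of 18.4 TPM with DMSO and 12.6 with methanol. The mean was 25.7 TPM with EGCG and 17.2 with DHEA. The DHEA libraries, at 14.2 to 18.9 TPM, overlapped those of DMSO, at 16.1 to 20.3 TPM. Ankrd37 in Th17p Total cells stood at 39.9, 39.2, 39.5, 47.4 and 39.2 TPM with DMSO, 46.97, 43.9, 49.9, 50.1 and 52.1 with EGCG, 39.7, 36.9, 38.98, 39.7 and 50.5 with methanol and 64.9, 61.2, 68.4, 65.7 and 74.8 with DHEA. The rise with DHEA was 0.70 log2 (SE 0.11, adjusted p = 1.00e-07), and the change with EGCG, 0.24 (SE 0.11, adjusted p = 0.0608), was not called, though it was with the groups compared fitted alone (adjusted p = 0.00998). Both were called in Th17p Div.1 cells, at 0.54 (SE 0.11, adjusted p = 5.78e-05) with EGCG and 0.88 (SE 0.11, adjusted p = 4.60e-10) with DHEA. The DHEA response in Th17n cells was larger in Div.1 than in Total by 0.48 log2 (SE 0.15, adjusted p = 0.0369), a difference lost without any of 6 single libraries, at adjusted p of 0.0515 to 0.132. It was also lost with well A4 in its labelled group (adjusted p = 0.131) and under rescaling (adjusted p = 0.0754). The same held with the groups compared fitted alone (adjusted p = 0.0973) and with no filter on low values (adjusted p = 0.0684). Ankrd37 and Bnip3l were the 2 genes called in that comparison of sorts, against 6.79% of all genes. For EGCG 0 of the 9 genes were called between sorts in either cell type by limma, with 1 gene at an unadjusted p under 0.05 in each, against 2.57% of all genes called in Th17p and 13.3% in Th17n cells.

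P4ha1 (chr10:59323296-59373304, plus strand) rose with DHEA in Th17p cells, from 48.3, 45.5, 53.02, 55.4 and 49.8 TPM to 68.96, 66.2, 78.2, 70.1 and 87.2 TPM in Total cells. The 2 groups did not overlap, and the rise was 0.54 log2 (SE 0.08, adjusted p = 1.55e-07) there and 0.64 log2 (SE 0.08, adjusted p = 5.63e-09) in Div.1 cells. In Th17n Total cells it rose by 0.24 log2 (SE 0.08, adjusted p = 0.0153), a call lost without DHEA replicate 10 (0.21, adjusted p = 0.0511) or methanol replicate 7 (0.16, adjusted p = 0.127). In Th17n Div.1 cells the change was -0.06 (SE 0.08, adjusted p = 0.642), and the DHEA response there was smaller than in Th17p cells by 0.70 log2 (SE 0.12, adjusted p = 1.73e-05). P4ha1, Egln1 and Bnip3l were the 3 of the 9 genes whose DHEA response differed between cell types in Div.1, against 15.9% of all genes. With EGCG P4ha1 was called in Th17p Div.1 cells, a rise of 0.25 log2 (SE 0.09, adjusted p = 0.0184) that was lost without DMSO replicate 3 (0.23, adjusted p = 0.0539) and, as given above, under rescaling. Its other EGCG changes were 0.18, 0.17 and 0.03 in Th17p Total, Th17n Total and Th17n Div.1 cells, none called, though the first was with the groups compared fitted alone (adjusted p = 0.0153). Kdm3a (chr6:71588972-71632990, minus strand) had group means of 4.08 to 8.22 TPM and a single call, a rise with DHEA in Th17n Div.1 cells of 0.71 log2 (SE 0.24, adjusted p = 0.0167), from 3.83, 2.68, 2.96, 5.96 and 4.98 to 5.88, 8.24, 7.83, 5.49 and 8.26 TPM. The 2 groups overlapped, and the call was lost without methanol replicate 7 (0.60, adjusted p = 0.0631) or replicate 8 (0.63, adjusted p = 0.0514). Vegfa (chr17:46016993-46032369, minus strand) had group means of 0.0451 to 0.283 TPM and was not tested, and no change in it can be read at these levels.

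The responses to the compounds, each against its own solvent, were then set against each other. The doses, 20 µM EGCG and 50 µM DHEA, and the solvents differ, so the test compares these 2 treatments as given. In Th17p Total cells the EGCG response was lower than the DHEA response for 8 of the 9 genes, all but Kdm3a, against 9.34% of all genes. The widest gaps were those of Bnip3, -2.06 (SE 0.20, adjusted p = 1.34e-13), and Egln3, -1.88 (SE 0.16, adjusted p = 3.04e-15). Bnip3l (-0.87, adjusted p = 4.47e-08) and Hif1a (-0.80, adjusted p = 4.74e-06) followed. Each gap also holds the difference between its solvent groups, where solvent and plate column cannot be told apart. Here the means with DMSO and methanol were 46.6 and 31.2 TPM for Bnip3 and 29.4 and 20.4 for Bnip3l. They were 79.8 and 66.4 TPM for Hif1a, but 37.8 and 42.9 for Egln3. A methanol mean below that of DMSO widens such a gap, and for Egln3 the reverse held. The solvent differences of Bnip3 and Bnip3l were called, as given above. The gap of Ndrg1, which rose with both compounds, was -0.68 (SE 0.27, adjusted p = 0.0408) and was lost without any of 10 single libraries, at adjusted p of 0.0506 to 0.108. It was also lost with well A4 in its labelled group (adjusted p = 0.145), with no filter on low values (adjusted p = 0.0774) and with 0.1 in place of 1 added to TPM (adjusted p = 0.0939). In Th17p Div.1 cells 6 of the 9 were lower, against 7.65% of all genes, with gaps of -2.35 for Bnip3 (adjusted p = 3.97e-15) and -2.19 for Egln3 (adjusted p = 3.49e-17). In Th17n cells the treatments were closer: 3 of the 9 were lower in Total cells, against 8.49% of all genes, and 1, Bnip3, in Div.1 cells, against 6.64%. Bnip3 had gaps of -0.75 (SE 0.20, adjusted p = 0.0021) and -0.85 (SE 0.20, adjusted p = 0.000945) there, while both of its responses were rises. Its treated levels lay close, with means of 28.8 TPM with EGCG and 26.2 with DHEA in Total, and 27.6 and 30.9 in Div.1 cells. The solvent means lay further apart, at 20.5 TPM with DMSO and 10.7 with methanol in Total, and 16.2 and 9.45 in Div.1 cells. These gaps thus hold the difference between the solvent groups, where solvent and plate column cannot be told apart. For Egln3 the gap in Th17n cells was -0.01 (95% interval -0.33 to 0.32) in Total and 0.01 (95% interval -0.33 to 0.34) in Div.1 cells, neither called. None of the 9 genes was called with a higher EGCG than DHEA response in any of the 4 comparisons. Rescaling shifted the median gene by -0.103 and -0.106 in the 2 Th17p comparisons. Over all genes it took the responses called higher and lower with EGCG from 2633 and 997 to 1772 and 1669 in Th17p Total, from 2544 and 816 to 1607 and 1441 in Th17p Div.1, from 1927 and 906 to 1371 and 1397 in Th17n Total and from 1775 and 709 to 1145 and 1100 in Th17n Div.1 cells.

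**Figure D4:**
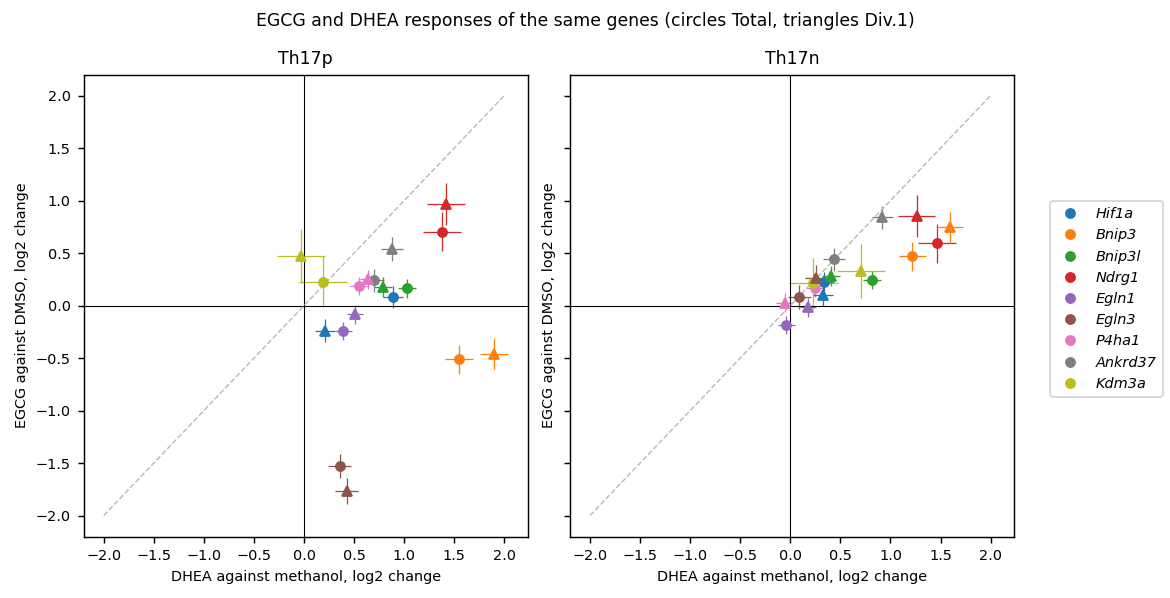
Log2 change with EGCG (y axis) against log2 change with DHEA (x axis) for the 9 tested genes in Th17p and Th17n cells, circles for Total and triangles for Div.1, with SE bars and a dashed line of equal response. In Th17p cells Bnip3 and Egln3 lie right of and below 0, and in Th17n cells Bnip3, Ndrg1 and Ankrd37 lie above 0 on both axes.

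Other genes of the pathway, from lists chosen by their known roles with earlier results of these data known, give the setting of these changes. Shares of all genes called, without rescaling, follow in the order Th17p Total, Th17p Div.1, Th17n Total and Th17n Div.1. With EGCG they were 30.1%, 33.7%, 21.7% and 28.1% higher and 14.9%, 11.9%, 13.5% and 6.77% lower. With DHEA they were 20.9%, 18.1%, 20.8% and 22.1% higher and 26.8%, 19.2%, 25.3% and 14.6% lower. In the core of oxygen sensing (HIF partners, VHL and its ligase, and HIF coactivators) 9 of 14 listed genes were tested and few were called. In the order Th17p Total, Th17p Div.1, Th17n Total and Th17n Div.1, the counts were 0 higher and 0 lower, 1 higher and 0 lower, 0 higher and 1 lower and 3 higher and 0 lower with EGCG and 1 higher and 2 lower, 2 higher and 2 lower, 0 higher and 2 lower and 0 higher and 0 lower with DHEA. After rescaling the EGCG counts were 0 higher and 2 lower, 0 higher and 1 lower, 0 higher and 2 lower and 1 higher and 0 lower. Cul2, the scaffold of the VHL ligase, fell from 73.8 to 55.4 TPM with DHEA in Th17p Total cells, a change of -0.41 (SE 0.07, adjusted p = 2.88e-07). Of 50 other hypoxia-inducible genes outside glycolysis 40 were tested. With DHEA they were 22 higher and 4 lower in Th17p Total, 20 and 2 in Th17p Div.1, 13 and 10 in Th17n Total, and 17 and 5 in Th17n Div.1 cells. Their medians were 0.33, 0.20, 0.13 and 0.21, beside the medians of all genes given above. With EGCG the same 40 genes were 11 higher and 6 lower in Th17p Total, 18 and 5 in Th17p Div.1, 10 and 5 in Th17n Total, and 19 and 3 in Th17n Div.1 cells. Their EGCG medians were 0.12, 0.22, 0.09 and 0.18, beside 0.09, 0.12, 0.05 and 0.11 over all genes. After rescaling the EGCG counts were 11 and 9, 11 and 9, 8 and 6, and 12 and 5. Ddit4, an inhibitor of mTORC1, rose with EGCG in Th17p Total cells from 14.4 to 39.2 TPM, a change of 1.38 (SE 0.19, adjusted p = 5.41e-09). Plod2, a collagen lysyl hydroxylase, rose with DHEA in Th17p Total cells, 1.10 (SE 0.15, adjusted p = 1.19e-08), and fell in Th17n Total cells, -1.24 (SE 0.15, adjusted p = 4.24e-10).

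The 19 tested genes of glucose uptake, glycolysis and lactate export were called mostly in the direction of Bnip3, except with DHEA in Th17n Total cells. Of all genes, 30.9% in Total and 34.9% in Div.1 cells were called higher in Th17p than in Th17n cells without compound. In cells without compound 16 of the 19 were higher in Th17p than in Th17n Total cells and 18 in Div.1 cells, with 0 lower and medians of 0.48 and 0.63 beside 0.02 and 0.04 over all genes. With EGCG 14 were lower in Th17p Total and 13 in Th17p Div.1 cells, with 0 higher (14 lower and 0 higher in each after rescaling), while in Th17n cells 7 were higher and 1 lower in Total and 8 higher and 0 lower in Div.1. Rescaled, the Th17n counts became 6 and 2 in Total and 4 and 1 in Div.1. The median change with EGCG was -0.24 and -0.18 in Th17p cells, beside medians of all genes of 0.09 and 0.12. With DHEA 11 were higher and 3 lower in Th17p Total cells, 14 and 0 in Th17p Div.1, 4 and 7 in Th17n Total, and 10 and 1 in Th17n Div.1. Rescaled, the DHEA counts in the same order were 13 higher and 3 lower, 16 higher and 0 lower, 6 higher and 7 lower and 10 higher and 4 lower. Slc16a3, the lactate exporter MCT4, rose with DHEA in Th17p Total cells from 8.17 to 32.2 TPM, a change of 2.02 (SE 0.27, adjusted p = 2.05e-09). Aldoa, the muscle-type aldolase, fell with EGCG in Th17p Total cells, from 2188 to 1536 TPM, a change of -0.51 (SE 0.05, adjusted p = 1.95e-12).

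Relatives of the 10 genes gave mixed counts, to be set against the shares of all genes given with the lists above. Of 12 tested genes of other mitophagy routes, 5 were higher and 4 lower with DHEA in Th17p Total cells, with a median of 0.10. Of all genes tested, 20.9% were higher and 26.8% lower there. In the order Th17p Total, Th17p Div.1, Th17n Total and Th17n Div.1, the EGCG counts of these 12 were 3 higher and 2 lower, 4 higher and 2 lower, 0 higher and 3 lower and 1 higher and 1 lower, and after rescaling 3 higher and 4 lower, 2 higher and 3 lower, 0 higher and 3 lower and 0 higher and 3 lower. The 3 paralogs of Ndrg1, Ndrg2, Ndrg3 and Ndrg4, were all tested. With DHEA 2 of the 3 were higher in Th17p Total cells and all 3 in the other 3 comparisons, with 0 lower. With EGCG the paralog counts in the same order were 0 higher and 0 lower, 1 higher and 0 lower, 2 higher and 0 lower and 1 higher and 0 lower. Of the VEGF ligands and receptors 3 of 8 were tested, and Nrp1, a semaphorin and VEGF co-receptor, rose with EGCG in all 4 comparisons, by most in Th17p Total cells from 1.90 to 5.75 TPM, a change of 1.25 (SE 0.16, adjusted p = 1.50e-09). Of 11 other JmjC histone demethylases, which share with Kdm3a a need for oxygen and 2-oxoglutarate, DHEA raised 4, 2, 4 and 5 in that order and lowered 0, 0, 1 and 0, and EGCG raised 0, 0, 0 and 2 and lowered 1, 1, 0 and 0. After rescaling these counts were 5 higher and 0 lower, 2 higher and 0 lower, 7 higher and 0 lower and 5 higher and 0 lower with DHEA and 0 higher and 1 lower, 0 higher and 2 lower, 0 higher and 0 lower and 1 higher and 1 lower with EGCG.

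Across the 16 group means of log2(TPM + 1), Ndrg1, Ankrd37 and Bnip3 were most alike. Pearson's r was 0.917 between Ndrg1 and Ankrd37, 0.889 between Bnip3 and Ankrd37 and 0.869 between Bnip3 and Ndrg1. Egln3 ran against 2 of them, at -0.563 with Ankrd37 and -0.535 with Ndrg1, and with P4ha1 at 0.559. The 16 groups share libraries' cell type, solvent and compound, so these values describe the design and carry no p. Likeness to other tested genes was ranked without provisional symbols (Gm, Rik, LOC and BC names). Those most like Bnip3 were Mgarp (r = 0.976), a mitochondrial protein, then the glycolytic enzyme gene Tpi1 and Ndrg2. Most like Ndrg1 were Gata3 (0.979), the Th2 transcription factor, Gimap6 and Tnfrsf9. Most like Ankrd37 were P4ha2 (0.977), Stap1 and Prelid2. For Bnip3l they were Ccng2 (0.954), Ngly1 and Ifnar1, and for Egln3 Ap5b1 (0.940), Usp28 and Glul. For P4ha1 they were Igf1r (0.939), Ubash3b and Qser1, and for Hif1a Dap (0.917), Arc and Zfp395. For Egln1 they were Pfkp (0.892), Gpi1 and Stc2, 2 of them glycolytic, and for Kdm3a Pttg1 (0.867), Fam53c and Klhl5.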

How the data were processed

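PolyA RNA was sequenced. The authors deposited gene-level TPM values. Per the submitters' processing notes these were made with Trimmomatic and kallisto on mm10, versions and settings not given in the sources used here. TPM is relative to each library's total, so depth and counting precision are unknown, and a rise of some genes lowers the rest. The 78 libraries without well A4 were tested with limma 3.58.1 (R 4.3.3) on log2(TPM + 1), a pseudocount of 1, with 16 group means, a mean-variance trend and Benjamini-Hochberg adjustment over the 10672 genes with at least 1 TPM in at least 4 libraries, within each comparison. All 10 genes were named, and of each further list up to 4 called genes of largest change were open to naming. Likeness of other tested genes to the 10 genes was ranked by Pearson's r over group means, with Gm, Rik, LOC and BC names left out. The genes and lists were chosen with earlier results of these data known. Of the marker lists, 2 genes are not reported here and are left out of the sums. Code was checked on simulated data. Figures used Python 3.11.15 and matplotlib 3.10.9. Alternatives were median-ratio rescaling, a pseudocount of 0.1, no filter, well A4 in its labelled group, each comparison's groups fitted alone, a block for replicate number and leaving out each library. Within-group pairs of libraries correlated at r of 0.976 to 0.993, and none was treated as a repeat.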

Additional observations from a re-analysis of the deposited data

Results flagged for a closer look

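In 11 of 160 checks of a gene in a group of 4 or 5 libraries, 1 library stood far from the others, where chance gives about 1 in 20. Ankrd37 was high in Th17p DMSO Total replicate 4 (47.4 TPM), Th17p methanol Total replicate 10 (50.5 TPM), Th17n methanol Total replicate 10 (16.8 TPM) and Th17n DHEA Div.1 replicate 10 (26.5 TPM). Bnip3l was low in Th17p DMSO Div.1 replicate 2 (24.2 TPM), and Ndrg1 was high in Th17n EGCG Div.1 replicate 4 (4.81 TPM). Egln3 stood apart in Th17n methanol Total replicate 10 (99.1 TPM). Kdm3a stood apart in Th17n EGCG Div.1 replicate 4 (3.86 TPM) and Th17p methanol Total replicate 8 (4.30 TPM). Vegfa stood apart in Th17p DMSO Div.1 replicate 5 (0.360 TPM) and Th17n EGCG Div.1 replicate 3 (0.195 TPM), both far under 1 TPM.

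Of 72 tests of a difference between cell types or between sorts in the response to a compound, 12 were called by limma. Of all genes tested, 19.9% in Total and 17.5% in Div.1 cells were called for EGCG between cell types, and 14.8% and 15.9% for DHEA. Between sorts 2.57% in Th17p and 13.3% in Th17n cells were called for EGCG, and 9.91% and 6.79% for DHEA. For EGCG, Th17p minus Th17n, they were Bnip3 (-0.98 log2 in Total, -1.20 in Div.1) and Egln3 (-1.61 in Total, -2.03 in Div.1). For DHEA, Th17p minus Th17n, they were Hif1a (0.55) and Egln1 (0.43) in Total cells and Bnip3l (0.38), Egln1 (0.33) and P4ha1 (0.70) in Div.1 cells. For DHEA, Div.1 minus Total, they were Hif1a (-0.67) in Th17p cells and Bnip3l (-0.41) and Ankrd37 (0.48) in Th17n cells.

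The library of well A4, labelled as Th17n DMSO Div.1 and left out, had 7 of the 10 genes above all 4 other libraries of that group. Bnip3 stood at 47.1 TPM against 12.3 to 17.9, Ndrg1 at 13.96 against 1.34 to 2.30 and Ankrd37 at 36.8 against 13.8 to 18.2. Hif1a stood at 94.8 against 66.1 to 81.1, Bnip3l at 30.5 against 21.6 to 25.4, Egln1 at 10.2 against 8.75 to 9.997 and Vegfa at 0.301 against 0 to 0.130. Egln3, at 41.999 TPM, and P4ha1, at 55.6 TPM, lay below those 4 libraries.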

How the results depend on the processing

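The 9 tested genes in 28 comparisons gave 252 changes, of which 103 were called, and 0 of these 103 took the other direction under any alternative run. Calls were lost 12 times with well A4 in its labelled group, 6 times with rescaling, 14 times with each comparison's groups fitted alone, 6 times with no filter and 2 times with a pseudocount of 0.1. Calls were gained 1, 6 and 7 times under the first 3 of these. Well A4 changed the size of a change only where the Th17n DMSO Div.1 group was compared. Elsewhere it acted through the shared estimate of the spread and the adjustment. Leaving out 1 library lost calls 74 times and gained them 32 times. Counts of called genes that moved by over 1.5 times were small ones. For the DHEA response, Div.1 minus Total, in Th17n cells the count of 2 became 0 with A4, 0 with groups alone, 0 with no filter and 0 to 2 leaving out 1 library. For the DHEA response, Th17p minus Th17n, in Div.1 cells the count of 3 became 1 with groups alone and 1 to 3 leaving out 1 library. For Div.1 against Total the count of 2 in Th17n cells became 1 with A4, with rescaling, with groups alone and with no filter, and 1 to 3 leaving out 1 library. In Th17p cells the count of 1 became 2 with rescaling, 2 with a replicate block, and 1 to 2 leaving out 1 library. For methanol against DMSO the count of 2 in Th17p Div.1 cells became 1 with A4, 0 with groups alone and 1 to 2 leaving out 1 library, and the count of 4 in Th17n Div.1 cells became 2 with groups alone. For the EGCG response, Div.1 minus Total, in Th17n cells the count of 0 became 1 with the replicate block and 0 to 1 leaving out 1 library. The cause of these changes was not tested. Libraries with the same replicate number correlated at -0.0016 to 0.315 in their deviations from group means, and the main tests used no pairing. The own number was the best match for 30 of 38 libraries between compound and solvent and for 36 of 38 between Total and Div.1. These matches point to pairing in most libraries, though the labels state none. Results of Total and Div.1 cells may therefore not be independent. The block lost 0 calls and added 12. With EGCG it took the count from 4 to 6 in Th17p Total, 5 to 6 in Th17p Div.1 and 4 to 5 in Th17n Total cells. It was not run for methanol against DMSO, whose replicate numbers do not overlap. Depth is unknown, and the lowest genes, Vegfa and in Th17n cells Ndrg1, are the least precise.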
